A study of Rattus norvegicus with 2 samples.

Results

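Matricellular proteins are secreted into the extracellular matrix, where most of them act on cells through receptors and bind other matrix molecules, growth factors or proteases more than they carry load. The 8 genes described here, Mgp, Spp1, Postn, Tnc, Sparc, Thbs1, Thbs2 and Olfml2a, were taken by name, as probe sets of the deposited table with 1 gene symbol in the platform annotation. Of the 8, 6 had such a probe set, 1 each, among 18166 genes measured, and Tnc and Thbs1 were not analysed here. They were chosen with their C6 and SMiG values known, so those values are given as a description and no test is made of them.

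The cells were C6, an established rat glioma line grown in medium with 10% fetal bovine serum. One culture was treated with small molecules and labelled SMiG, and the other was undifferentiated and labelled C6, with 1 array of each. The SMiG sample's own labels name forskolin, which activates adenylyl cyclase, rapamycin, which inhibits mTORC1, and I-BET151, which inhibits BET bromodomain proteins. The treatment text given for both samples names instead CHIR99021, a GSK3 inhibitor, at 20 µM with forskolin at 100 µM for 35 days, and the labels do not settle which was used. The series was set up to ask whether such compounds turn glioma cells towards benign glia that divide less. With 1 array a group there is no replicate error, no p-value is given, and the number of arrays limits the precision.

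Mgp encodes matrix Gla protein, whose glutamate residues are carboxylated by a vitamin K-dependent enzyme and which restrains calcification of arteries and cartilage. Spp1 encodes osteopontin, a phosphorylated glycoprotein that binds integrins and CD44, and Postn encodes periostin, which binds integrins and takes part in collagen assembly. Sparc encodes a collagen-binding glycoprotein, Thbs2 a thrombospondin known to restrain vessel growth, and Olfml2a a secreted protein with an olfactomedin domain. Osteopontin, periostin, tenascin-C (Tnc) and SPARC have all been studied in malignant glioma, where they have been linked to invasion and to the tumour's myeloid cells and vessels.

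The RefSeq promoter table of the GRCr8 build held 4 of the 6 measured genes. Their 250 bases before the start site are shown because they join a pair of genes that were low in SMiG, Spp1 and Postn, to 1 that was high, Olfml2a, and 1 that hardly differed, Sparc. Each is written 5′ to 3′ on the gene's strand, and capitals mark a match to any of the motifs searched.
Spp1, chr14:5619805-5620054, - strand: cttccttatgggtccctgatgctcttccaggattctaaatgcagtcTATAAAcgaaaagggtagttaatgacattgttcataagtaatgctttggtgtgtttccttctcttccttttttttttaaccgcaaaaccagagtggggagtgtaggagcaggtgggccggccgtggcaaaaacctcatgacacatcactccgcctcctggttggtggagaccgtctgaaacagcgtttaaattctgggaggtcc
Postn, chr2:140677811-140678060, + strand: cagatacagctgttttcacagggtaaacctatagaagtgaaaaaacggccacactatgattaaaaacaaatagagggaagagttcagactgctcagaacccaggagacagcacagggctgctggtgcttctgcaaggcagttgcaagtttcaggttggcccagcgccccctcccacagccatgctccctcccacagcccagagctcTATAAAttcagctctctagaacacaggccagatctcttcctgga
Olfml2a, chr3:43098049-43098298, + strand: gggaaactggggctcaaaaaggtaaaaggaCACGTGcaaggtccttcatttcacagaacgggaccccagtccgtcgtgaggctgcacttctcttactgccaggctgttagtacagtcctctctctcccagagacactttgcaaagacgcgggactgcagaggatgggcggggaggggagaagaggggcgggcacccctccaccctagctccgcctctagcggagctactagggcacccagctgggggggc
Sparc, chr10:40038817-40039066, - strand: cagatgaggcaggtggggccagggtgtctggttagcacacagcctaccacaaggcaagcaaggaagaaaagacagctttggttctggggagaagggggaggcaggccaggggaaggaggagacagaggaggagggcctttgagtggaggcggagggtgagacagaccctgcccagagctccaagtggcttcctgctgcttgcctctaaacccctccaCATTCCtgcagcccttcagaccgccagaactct

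The motifs were the TATA box TATAAA, the cyclic AMP response element TGACGTCA, the AP-1 motif TGANTCA, the TEAD motif GGAATG and the E-box CACGTG, on both strands. None of them overlapped another in these windows. A TATA box on either strand was found in 12.9% of 33469 promoter windows of the same length. Spp1 and Postn each held 1, on the gene's strand. In Postn it lay 44 to 39 bases before the start site, and in Spp1 204 to 199 bases before it. The Olfml2a window held 1 E-box, 220 to 215 bases before the start, a motif found in 5.59% of the windows. The Sparc window held 1 TEAD motif on the other strand, 33 to 28 bases before the start. On either strand, 12.1% of all windows held that motif. The cyclic AMP element, found in 1.59% of all windows, and the AP-1 motif, found in 6.34%, had no match in these 4. The windows of Olfml2a and Sparc were 60.8% and 60.0% G and C, and those of Postn and Spp1 50.8% and 46.8%, around a median of 51.2% for all windows. These are matches of letters only, and nothing was measured at the promoters.

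Expression is given as the deposited log2 value, and a difference is always the SMiG value minus the C6 value. A difference of 1 is 2-fold. Since 1344 olfactory and vomeronasal receptor genes can be taken as silent in glioma cells, the 95th percentile of their values served as the floor of each array, 4.96 for SMiG and 4.84 for C6. A gene was called detected if it passed the floor on at least 1 array, as 10936 genes did. For a gene whose dimmer array did not pass, the fold is the brighter value over that array's floor, written as at least that fold. The receptor genes differed between the arrays with an SD of 0.32. This is a spread near the floor, and it does not measure how expressed genes vary between cultures.

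Of the 6 genes, 2 were higher in SMiG by 2-fold or more, Mgp and Olfml2a, and 2 were lower by 2-fold or more, Spp1 and Postn. Sparc and Thbs2 were within 2-fold. Over all detected genes, 3.19% were higher and 6.51% lower by 2-fold or more. With values under the floor raised to it, the 6 gave the same 2 and 2, and those shares were 3.05% and 5.75%. The genes were chosen from this contrast, so nothing is read from their share against those percentages. The median difference was −0.28 over the 6, beside −0.0048 over all detected genes, and the 6 values ran from −5.55 to 6.19.

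**Figure D1:**
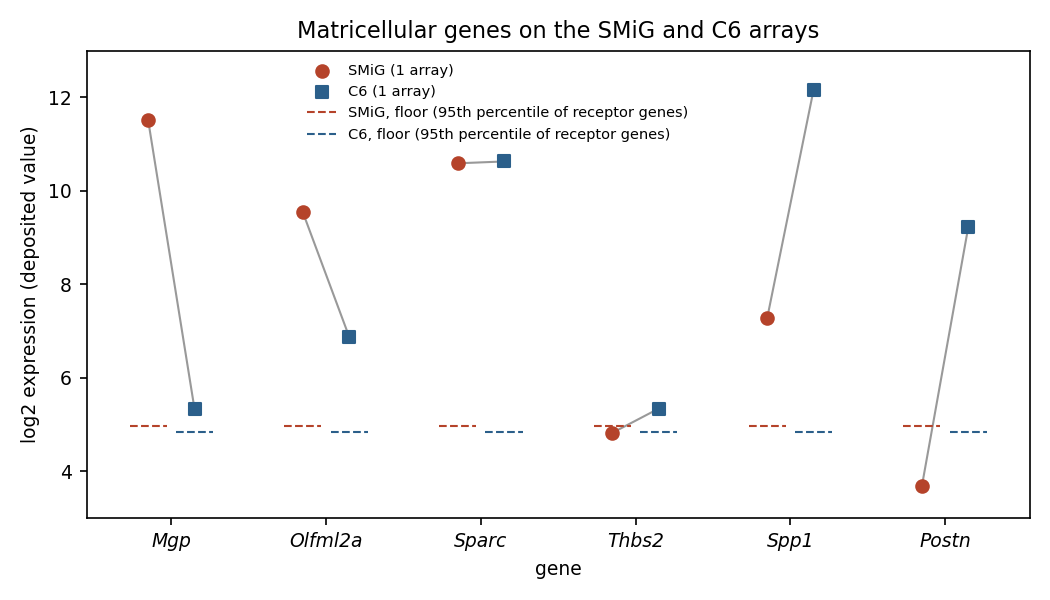
Deposited log2 expression (y axis) of the 6 measured matricellular genes (x axis), with the SMiG array as circles on the left of each pair and the C6 array as squares on the right. The dashed lines are the floors, 4.96 for SMiG and 4.84 for C6, and 1 array a group leaves no error bars. Mgp and Olfml2a slope down towards C6, Spp1 and Postn slope up, Sparc is level, and Postn in SMiG and Thbs2 in SMiG lie under the floor.

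Mgp was read at 11.52 in SMiG, against 5.33 in C6. The SMiG value lay 6.56 above its floor, and the C6 value only 0.49 above its own, so that Mgp was bright on 1 array and barely above the level of silent genes on the other. In C6, 38 of the 1344 receptor genes were brighter than Mgp, and in SMiG none was. The difference of 6.19 is 73.0-fold on the measured values. With the floor moved to the 99th percentile of the receptor genes, 5.91 for C6, Mgp would count as silent in C6 and the fold would be at least 48.7. No other detected gene differed by as much in either direction.

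Olfml2a was also higher in SMiG, at 9.54 against 6.87 in C6. Both values were clear of the floor, by 4.58 in SMiG and 2.03 in C6, so its 6.35-fold excess is not a bound. Olfml2a ranked 12th of the 10936 detected genes from the highest difference. Its 2.67 is well short of the 6.19 of Mgp.

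Spp1 was read at 7.27 in SMiG, against 12.16 in C6. It was 29.5-fold lower in SMiG, a difference of −4.88, and only 4 detected genes had a lower difference. Spp1 was still measurable in the treated cells, where its value stood 2.31 above the floor, and only 2 of the receptor genes were brighter there. In C6 it stood 7.32 above the floor. Its fold thus rests on a level measured on both arrays.

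Postn was read at 3.68 in SMiG, against 9.23 in C6. Unlike Spp1, it was under the floor in SMiG, by 1.28, and 339 of the 1344 receptor genes were brighter than it there. The measured difference of −5.55 would be 47.0-fold, but a value among silent genes gives no level, and the supported statement is at least 19.4-fold lower in SMiG. With the 99th percentile floor, 5.99 for SMiG, the bound is at least 9.44-fold. On measured values only 1 detected gene was lower, while against the bound Spp1 would stand below Postn, so the order of these 2 is not settled.

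Sparc was read at 10.59 in SMiG and 10.63 in C6. The difference of −0.03 was smaller than the SD of the receptor genes, and 94.8% of detected genes differed by at least as much. Both values were far above the floor, by 5.64 in SMiG and 5.79 in C6. Without replicates this does not show that its level was equal in both cultures.

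Thbs2 was near the floor on both arrays, at 4.82 in SMiG and 5.34 in C6. It lay 0.14 under the floor in SMiG and 0.50 above it in C6, where 37 receptor genes were brighter. Its difference of −0.52 reduces to a bound of at least 1.31-fold lower, and at the 99th percentile floor Thbs2 was not detected at all.

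**Figure D2:**
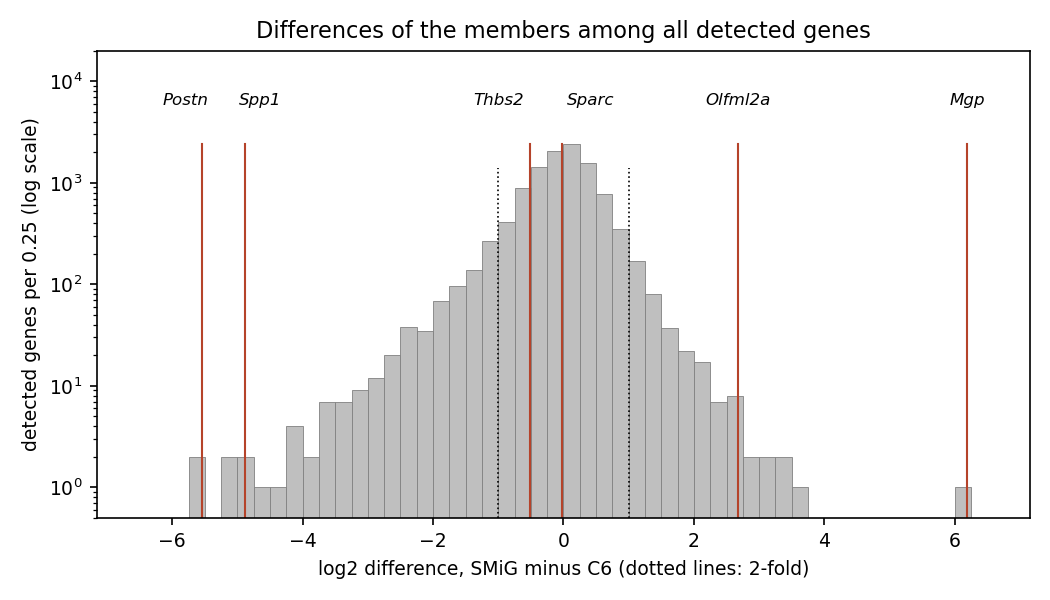
Number of detected genes (y axis, log scale, bins 0.25 wide) by log2 difference between SMiG and C6 (x axis), with red lines at the 6 matricellular genes and dotted lines at 2-fold. Mgp at 6.19 stands alone at the right end, Postn at −5.55 and Spp1 at −4.88 are among the few genes at the left end, and Sparc at −0.03 and Thbs2 at −0.52 lie in the bulk.

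Over all detected genes the central range of differences, between the 2.5th and the 97.5th percentile, was −1.59 to 1.10. The 4 genes past 2-fold all lay outside it. The members were chosen with these values known, so this and the counts that follow only describe them. An absolute difference as large as that of Olfml2a was seen in 65 detected genes, or 0.594%, one as large as that of Spp1 in 6 and one as large as that of Postn in 3.

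With 2 arrays, likeness to another gene can be judged only by the size of the difference. The detected genes nearest to Mgp were Lifr, the receptor of leukaemia inhibitory factor, at 3.50, and Cp, encoding ceruloplasmin, at 3.43, both well short of it. Nearest to Olfml2a were Inka2 at 2.71 and Col18a1, a basement membrane collagen gene, at 2.72. Spp1 lay next to Nupr1, encoding a stress-induced nuclear protein, at −4.86, and to the splicing factor gene Rbfox1 at −5.03. Postn lay next to Scg2, encoding secretogranin II, at −5.60, and to Serpinf1, encoding pigment epithelium-derived factor, at −5.25. Of the genes near Spp1 and Postn, Nupr1, Rbfox1 and Scg2 were under the floor in SMiG, and near Mgp, Lifr was under it in C6, so these differences are no exact match.

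The genes beside the 6 on the chromosome were read to see whether differences were shared along it. In the order of RefSeq, the nearest 2 genes with a probe set on each side gave 24 neighbours, a choice made after the members' values were seen. Of these, 10 were detected, and 0 of the 10 differed by 2-fold in either direction, where 9.70% of all detected genes did. Some of the 10 lay beside Sparc or Thbs2, themselves within 2-fold, and none lay beside Mgp. With so few genes, nothing is read from this count. The 4 neighbours of Mgp on chromosome 4, C4h12orf60, Art4, Erp27 and Arhgdib, were all at or below the floor on both arrays. Next to Spp1 on chromosome 14, Pkd2, encoding polycystin 2, was at 8.55 in SMiG and 9.32 in C6. On the other side of Spp1 stood Mepe, at 4.38 in SMiG and 4.47 in C6, and Ibsp, at 4.56 and 4.75, both silent by the floor. Mepe and Ibsp belong with Spp1 to the SIBLING family of bone and tooth phosphoproteins, a cluster of genes that lie together. The largest neighbour differences were those of Supt20h, near Postn, at −0.97, and of Atox1, a copper chaperone gene next to Sparc, at 0.94.

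Most relatives of the members were under the floor or within 2-fold. Of 37 related matricellular genes listed, 33 had a probe set, of which 17 were at or below the floor on both arrays and 16 were detected. Of these 16, 11 were within 2-fold, 4 were lower by 2-fold or more and 1 was higher by as much, beside 6.51% and 3.19% of all detected genes, and the median was 0.10. The higher one was Pros1, which encodes protein S, like matrix Gla protein a vitamin K-dependent Gla protein, at 8.29 in SMiG and 6.85 in C6, or 2.71-fold. The lower ones were Efemp2, encoding fibulin-4, by 2.45-fold, Ecm1 by 2.19-fold, Ccn4, a CCN family gene, by at least 2.16-fold, and the tenascin gene Tnr, whose bound is at least 1.51-fold. With values under the floor raised to it, Tnr drops out and 3 were lower. Tgfbi, the close relative of Postn, was at 8.10 in SMiG and 7.69 in C6. Of the other SIBLING genes, Dmp1 and Dspp were under the floor on both arrays, as were Ibsp and Mepe. Among the relatives of Sparc, Fstl1 was at 10.40 in SMiG and 10.31 in C6, Smoc1 at 5.60 and 5.44 and Spock2 at 5.50 and 5.41, while Sparcl1, Smoc2, Spock1 and Spock3 were under the floor. Thbs4, of the thrombospondins, was at 5.32 in SMiG and 5.25 in C6. The relatives named from Tgfbi on were chosen after their values were seen.

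Of 14 genes, listed as those of olfactomedin-domain proteins together with the multimerin genes Mmrn1 and Mmrn2, 5 were detected. Olfm2 was 2.54-fold and the latrophilin gene Adgrl3 2.06-fold higher in SMiG, and Olfml3 was 2.07-fold lower, so that 2 of the 5 were higher and 1 lower, beside 3.19% and 6.51% of all detected genes. Adgrl2 at −0.30 and Adgrl1 at −0.13 were within 2-fold, and the median was −0.13. Olfml2b, the gene most like Olfml2a by name and picked with its value known, was under the floor on both arrays, at 4.76 in SMiG and 4.61 in C6.

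Genes for receptors of the members' proteins, or of other proteins listed here, were read too. Of 29 listed, 24 had a probe set and 21 were detected. Of the 21, 14 had a lower and 7 a higher value in SMiG, beside 50.3% and 48.9% of all detected genes. The median of the 21 was −0.39, or −0.19 with values under the floor raised to it. A difference of 2-fold or more was seen in 4, all lower, and in 0 on the higher side. Over all detected genes, 6.51% were lower and 3.19% higher by as much. Cd93, encoding a receptor for multimerin-2, was lower by at least 7.71-fold, with its SMiG value under the floor. The syndecan gene Sdc1 was 3.54-fold lower, and the integrin subunit genes Itga4 and Itga5, which pair with the beta-1 subunit in receptors of fibronectin and osteopontin, were 3.15-fold and 2.17-fold lower. Itgb5, whose product pairs with the alpha-v subunit, came nearest to 2-fold on the other side, at 10.24 in SMiG and 9.27 in C6, and was picked for that. Cd44, a receptor gene for osteopontin chosen here with its value known, was at 9.15 in SMiG and 9.09 in C6. Itgav and Itgb3 were not analysed here.

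Of 25 genes for enzymes that modify or cleave these proteins, and for their chaperones, 16 were detected. By 2-fold or more, 3 of them were lower and 1 was higher, beside 6.51% and 3.19% of all detected genes, and the median was −0.20. Fam20c, which encodes the kinase that phosphorylates secreted proteins such as osteopontin, was at 8.31 in SMiG and 7.09 in C6, or 2.33-fold higher. The metalloprotease genes Adamts1 and Adamts4 were 3.52-fold and 2.22-fold lower, and Ctsk, encoding cathepsin K, at least 1.60-fold lower. Ctsk is counted by its measured value. With values raised to the floor 2 were lower, and the median was −0.08. Genes for the carboxylation of matrix Gla protein were picked with their values known and were within 2-fold. The carboxylase gene Ggcx was at 8.49 in SMiG and 8.60 in C6, and the vitamin K reductase gene Vkorc1 at 8.14 and 7.68.

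Of 34 matrix partners and growth factors, 25 were detected. By 2-fold or more, 5 of them were lower and 1 was higher, beside 6.51% and 3.19% of all detected genes, and the median was −0.18. Tgfb2, encoding transforming growth factor beta-2, was the higher one, at 9.86 in SMiG and 7.94 in C6, or 3.80-fold. Ltbp1, which encodes a protein that holds latent TGF-beta in the matrix, was 6.57-fold lower, and the angiogenic factor gene Vegfa 7.58-fold lower. Fgf2 was at least 2.67-fold lower. The collagen genes Col1a1 and Col12a1 were 2.23-fold and 2.17-fold lower, and Tgfb1, at 8.49 in SMiG and 9.49 in C6, lay just inside 2-fold. Fn1, encoding fibronectin, was level at 11.88 in SMiG and 11.87 in C6. Bmp2 and Bmp4, whose proteins matrix Gla protein binds, were under the floor on both arrays. Fn1, Bmp2, Bmp4 and Tgfb1 were named after their values were seen.

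Of 32 symbols of factors that act on these genes in other cells, 28 had a probe set and 27 were detected. By 2-fold or more, 4 of them were lower and 0 were higher, beside 6.51% and 3.19% of all detected genes, and the median was −0.29. Runx2, the osteoblast factor known to act on Spp1, was at 7.70 in SMiG and 9.22 in C6, or 2.87-fold lower. Fosl1, an AP-1 subunit gene, was 3.68-fold and Klf4 2.59-fold lower, and Twist2 had a bound of at least 1.57-fold. Twist1, known to act on Postn and picked with its value known, was under the floor on both arrays. Myc, at 8.57 in SMiG and 7.64 in C6, was picked as the nearest to 2-fold higher. Twist2 is one of the 4 only by its measured value, and 3 were lower with values raised to the floor. Any part of these factors in the members' differences was not tested.

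Set beside all detected genes, of which 6.51% were lower and 3.19% higher by 2-fold or more, the lists held few genes each. The relatives had 25.0% lower and 6.25% higher, the olfactomedin list 20.0% lower and 40.0% higher, and the receptors 19.0% lower and 0% higher. The enzymes had 18.8% lower and 6.25% higher, the matrix partners 20.0% lower and 4.0% higher, and the upstream factors 14.8% lower and 0% higher. These shares use measured values, and nothing particular to a list is read from them.

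**Figure D3:**
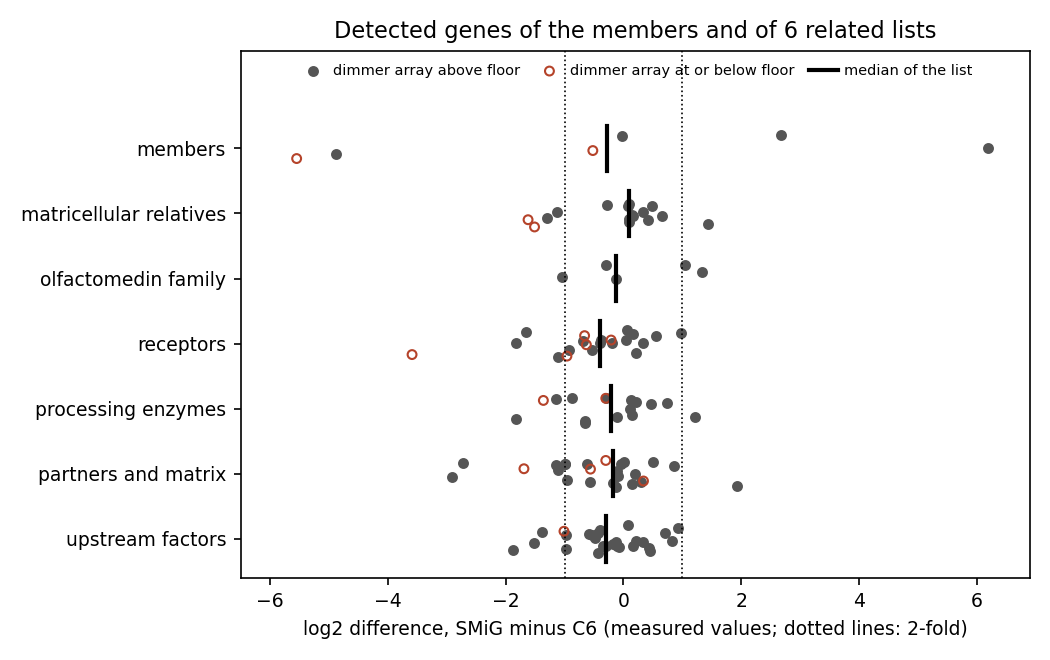
Log2 difference between SMiG and C6 (x axis) of each detected gene of the members and of the 6 related lists (y axis), with the median of each list as a bar and dotted lines at 2-fold. Open circles are genes whose dimmer array was at or below its floor, so that their position overstates what is supported. The members reach from −5.55 to 6.19, while the related lists lie between −3.59 and 1.93. The members were chosen with their differences known, so nothing is read from their wider range.

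The glial label was checked with 12 markers, of which 11 had a probe set and 10 were detected. Of the 10, 4 were higher in SMiG by 2-fold or more and 1 was lower, beside 3.19% and 6.51% of all detected genes. The median was 0.39. The list's linear signal summed to 13517 in SMiG and 10448 in C6, or 11639 and 9631 without S100b. Vim, encoding vimentin, was at 12.74 on both arrays, Cspg4 at 9.12 in SMiG and 8.70 in C6, S100b at 10.87 and 9.67, and Gfap, the astrocyte filament gene, at 5.48 and 6.04. Fabp7 was under the floor on both. Nes was at 8.59 in SMiG and 8.74 in C6, Sox10 at 10.32 and 9.30, Sox2 at 9.81 and 8.65, Cnp at 10.57 and 9.05, Olig2 at 5.43 and 5.08, and Gja1 at 5.90 and 8.19. In bulk RNA, fewer cells of a type and less RNA per cell cannot be told apart, so markers of other cells that make these matrix proteins were read too.

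Of 12 fibroblast markers, 7 were detected. Pdgfra was 2.24-fold and Col1a1 2.23-fold lower in SMiG, and Col1a2 had a bound of at least 1.13-fold lower. S100a4 was at −0.60, Pdpn at 0.35, Col3a1 at 0.15 and Thy1 at 0.06. The list's other genes, Dcn, Lum, Fap, Tcf21 and Dpt, were under the floor on both arrays. Summed as linear signal over the list, the fibroblast markers came to 3294 in SMiG and 5212 in C6. S100a4 carried the largest part of the difference, −961 of −1918. Without it the sums were 1446 in SMiG and 2402 in C6, so the fall did not rest on that gene alone. Of 8 smooth muscle and mural markers with a probe set, 5 were detected. Pdgfrb was 5.15-fold lower, the other 4 were within 2-fold with Rgs5 and Notch3 on the higher side, and Tagln, Des and Lmod1 were under the floor on both. The mural sums were 913 in SMiG and 1369 in C6, or 838 and 984 without Pdgfrb.

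Of 12 bone and cartilage markers, 6 were detected, with Runx2 the only one past 2-fold, Matn1 at 0.32 and Bglap at 0.10 on the higher side, and Ibsp, Dmp1, Alpl, Acan, Sox9 and Col10a1 under the floor. Their sums were 535 in SMiG and 936 in C6, and 328 and 341 without Runx2. Of 14 macrophage and microglia markers, 6 were detected. Cd14 was 2.72-fold lower, Tmem119 at −0.81, Cd68 at a bound of at least 1.33-fold lower and C1qc at −0.21, while P2ry12 was at least 1.40-fold higher and C1qa at 0.26. Aif1, Csf1r, Ptprc, Itgam, Cx3cr1, C1qb, Mrc1 and Tyrobp were under the floor. Their sums were 432 in SMiG and 684 in C6, and 296 and 316 without Cd14. Of 7 endothelial markers with a probe set, 3 were detected, Flt1 at least 2.83-fold lower, Tek at −0.86 and Cldn5 at 0.10, with Cdh5, Tie1, Vwf and Emcn under the floor. Their sums were 171 in SMiG and 250 in C6, and 149 and 162 without Flt1. Every marker sum, the glial one included, adds all genes with a probe set, also those under the floor, so part of it is background. The lower sums of the mural, bone, macrophage and endothelial lists thus rested mostly on 1 gene each. Most other members of those lists were under the floor or within 2-fold. The part of these genes in the differences of Spp1 and Postn was not tested.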

How the data were processed

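Sense cDNA made from total RNA of C6 cells was fragmented, biotin-labelled and put on GeneChip whole-transcript arrays, per the labels' protocols. The deposited table gives the authors' log2 expression for 36685 probe sets on each array. Its log base, background correction and normalization were not given in the sources used here. Base 2 was inferred, because values reach from 1.26 to 13.09 and a 16-bit reading has a natural log of at most 11.09. The sorted columns differed by a median of 0.036, so they were taken to be on a common scale and were not normalized again.

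Symbols came from the platform annotation, matched by gene number to RefSeq names of GRCr8. Of the probe sets 18511 had 1 symbol, 575 had several and 17599 had none, and only the first kind was used. Averaging the probe sets of a gene left 18166 genes, and 291 of these had several probe sets. In 178 detected genes with exactly 2 probe sets, the pair's differences had an SD of the gap of 0.51. The floor used the 1344 genes with symbols of olfactory or vomeronasal receptors, without Olr1, the oxidised lipoprotein receptor gene (RefSeq synonym Oldlr1). Of these 79 (5.88%) were detected and 10 (0.744%) passed 2-fold. The counting step was run on simulated data with changes well past 2-fold in genes well above the floor. That run does not bear on values near the floor.

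The members and the gene lists were chosen with earlier results of these data known. Named were the 8 members, each detected list gene past 2-fold, otherwise up to 4 of a list with the largest difference, the glial markers, and the 2 genes nearest in difference to each member past 2-fold. Other list genes were named with their values known, for their role or nearness to 2-fold, as were single markers and the genes beside the members. The alternatives were other floors, values raised to the floor, other scalings, other handling of several probe sets, and fold thresholds of 1.5 and 4. The work ran in Python 3.11.15 (matplotlib 3.10.9, numpy 2.4.6, statsmodels 0.14.6, pandas 2.3.3).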

Additional observations from a re-analysis of the deposited data

How the results depend on the processing

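No paired analysis was possible because each group had 1 array. Each measured member had 1 probe set, and its measured difference does not use the floor. Moving or dropping the floor, or handling several probe sets otherwise, therefore could not change a member's difference. Only the scalings and the values raised to the floor could. Under these, Mgp, Olfml2a, Spp1, Sparc and Thbs2 moved by less than the SD of the receptor genes. The difference of Postn was −4.27 with values raised to the floor. At the 99th percentile floor Thbs2 gave no value. The members counted 2 higher and 2 lower under each alternative, the fold thresholds included. The scaling and probe set alternatives kept the list counts within 1.5 times, as did the floors. At a threshold of 1.5-fold the relatives had 2 higher, the receptors 9 lower and 1 higher, the enzymes 6 lower and 2 higher, the matrix partners 9 lower and 2 higher, and the upstream factors 3 higher. At 4-fold the relatives, the olfactomedin genes and the enzymes had 0 lower and 0 higher, the receptors 1 lower, the matrix partners 2 lower and 0 higher, and the upstream factors 0 lower. Signal over background limits Mgp in C6, Postn in SMiG and Thbs2 on both arrays.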
